A study of Oryza sativa Japonica Group with 64 samples.

Results

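The small subunit of Rubisco (RBCS) and Rubisco activase (RCA) of rice were followed in 64 RNA-sequencing libraries of flag leaves and anthers. The 6 genes were taken by their locus identifiers: LOC_Os02g05830 (RBCS1), LOC_Os12g17600 (RBCS2), LOC_Os12g19381 (RBCS3), LOC_Os12g19470 (RBCS4), LOC_Os12g19394 (RBCS5) and LOC_Os11g47970 (RCA). Of these 6, 5 were found among the 55986 genes of each table of counts, and RBCS5 was not analysed here. The RBCS numbers are those in common use for rice, are not part of the tables, and always stand for these identifiers. RBCS2, RBCS3 and RBCS4 are close copies of one another on chromosome 12, so a value of any one of them is uncertain where reads could be assigned to another copy, and no source used here states how reads were assigned.

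Rubisco fixes carbon dioxide in the Calvin cycle and, when it takes oxygen instead, feeds photorespiration. Its large subunit is made in the chloroplast, whereas the small subunits come from the nuclear RBCS family, enter the chloroplast after translation and are assembled with the help of chaperonins. Activase is an ATP-driven remodelling enzyme that frees the catalytic sites of Rubisco from bound sugar phosphates. In rice, RBCS2 to RBCS5 are the small subunits of leaf blades, and RBCS1 is known from organs that are not green.

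The plants were Oryza sativa ssp. japonica cultivar 9522, either wild type (WT) or the csa mutant, grown in a Shanghai paddy field. CSA (carbon starved anther, LOC_Os01g16810) encodes a MYB transcription factor known for its part in moving sugars to anthers, and csa mutants are known as male sterile when days are short. Long days (LD) were the natural day length of about 14.5 h, and short days (SD) of 12 h light were made for both genotypes by covering part of the plots with lightproof film from 18:00 to 6:00. Flag leaves of WT and csa in SD and in LD were taken at stage 12 of anther development every 4 h, at 04:00, 08:00, 12:00, 16:00 and 20:00 and at midnight (00:00), and anthers at 04:00 and 16:00 from the same tillers. Each of the 24 leaf groups and 8 anther groups had 2 biological replicates, 48 leaf and 16 anther libraries in all. The kind of csa mutation, the number of plants per library and whether replicates came from separate plots are not given in the labels, so p-values measure the spread between these libraries.

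Library totals were 18049365 to 25960164 counts in anthers and 12913111 to 20451568 in leaves. Levels are given as CPM, the counts of a gene relative to the scaled total of its library, and differences as log2 fold changes with a standard error (SE). The SE was derived from the test, as the size of the log2 fold change divided by the square root of its F statistic. Unless said otherwise, p-values come from edgeR's quasi-likelihood test, adjusted by Benjamini-Hochberg over all genes tested, at a threshold of 0.05. All 5 genes were tested in anthers, with 25203 genes in all. RBCS1 was too low to be tested in leaves, which left 4 of the 5 genes there among 22095. CSA itself was abundant in anthers of both genotypes, from 37.9 to 123 CPM in WT and from 87.5 to 244 CPM in csa, and at most 4.13 CPM in leaves, so it could not check the genotype labels. As a check, 8 other genes that separated the genotypes at least 4-fold in all anthers and in LD leaves outside 12:00 were used. In the 4 SD leaf libraries labelled 12:00, of both genotypes, 32 of 32 values of these genes lay nearer to the other genotype. The same was true of 2 of 160 values in the other SD leaves and of 0 of 32 in LD leaves at 12:00. These 4 libraries therefore go against their genotype labels. For the RBCS genes and RCA, the comparisons over all times and the peak times that use them are also given without them. Counts of other pathway genes in leaves are given only with them.

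In leaves the RBCS genes took 2.83% to 7.5% of all counts and RCA took 0.0467% to 6.96%. In the same tillers' anthers the RBCS genes took 0.033% to 0.184% and RCA 0.00843% to 0.0584%. The labelled tissues were as their markers have it: summed levels of 6 tapetum marker genes were 1626 to 7962 CPM in anthers and at most 2.7 CPM in leaves. In bulk tissue, fewer cells of a type and less RNA per cell cannot be told apart, and this holds for every difference given here.

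RCA had by far the wider daily range of the leaf genes tested. Under SD the 2 WT libraries of each time read 89322 and 79540.1 CPM at 08:00, 43158 and 35663 at 12:00, 3856 and 3826 at 16:00, 1124 and 1199.5 at 20:00, 5815 and 4323 at 00:00, and 30655 and 32404 at 04:00. Under SD the csa libraries read 86743 and 87205 CPM at 08:00, 48137 and 39261 at 12:00, 3943 and 3913 at 16:00, 1371 and 1210.4 at 20:00, 7747 and 5826 at 00:00, and 37842 and 33643 at 04:00. Both genotypes were highest in the morning, lowest at 20:00 and higher again at 00:00, and the 2 libraries of a time lay close together. Under LD the WT libraries read 67406 and 68529 CPM at 08:00, 19247 and 24136 at 12:00, 668 and 426 at 16:00, 1552 and 932 at 20:00, 8967 and 9059.9 at 00:00, and 59633 and 51293 at 04:00. Under LD the csa libraries read 103403 and 94296 CPM at 08:00, 28859 and 42826 at 12:00, 630.2 and 693 at 16:00, 1493 and 1218 at 20:00, 16308 and 17258 at 00:00, and 67614 and 75800.4 at 04:00. In LD the lowest time was 16:00, one collection earlier than in SD, and the level at 04:00 was nearer to that at 08:00. The mean at 08:00 was 72.7 times the lowest mean in WT and 67.4 times in csa under SD, and 124 and 149 times under LD. Peak and lowest groups did not overlap in any of the 4 conditions.

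**Figure D1:**
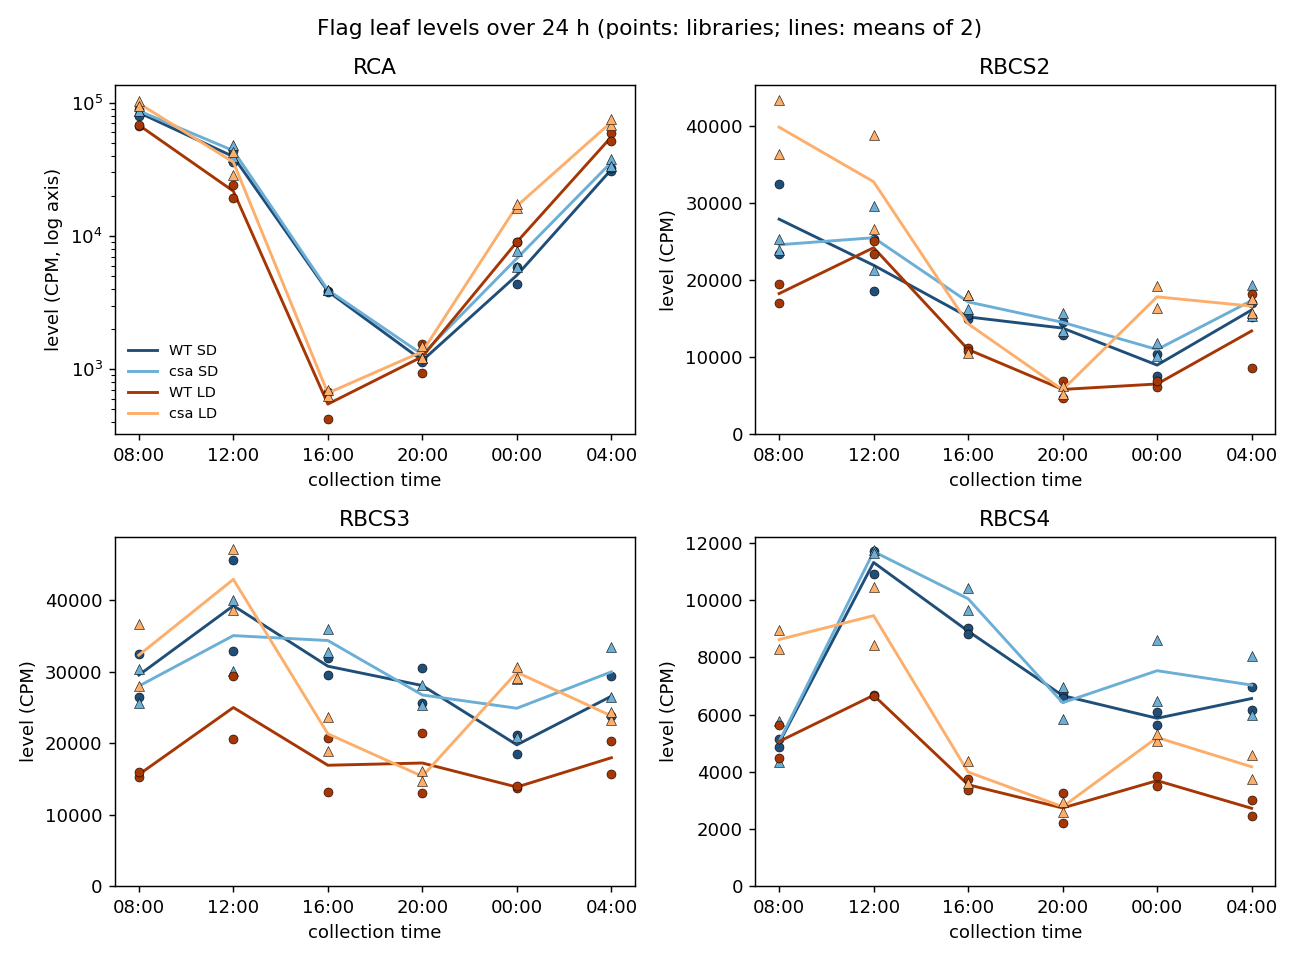
Leaf levels of RCA and of RBCS2, RBCS3 and RBCS4 (CPM, RCA on a log axis) against collection time in hours, with libraries as points and means of 2 as lines, for WT and csa under SD and LD. RCA is highest at 08:00 in all 4 conditions and lowest at 20:00 in SD and 16:00 in LD, while the RBCS genes vary far less.

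The small subunit genes moved over a narrower range than RCA, and RBCS3 and RBCS4 peaked later in the day. RBCS3 was highest at 12:00 in all 4 conditions, with a peak mean 1.98 times the lowest in WT SD, 1.41 times in csa SD, 1.8 times in WT LD and 2.79 times in csa LD. RBCS4 was also highest at 12:00 in all 4 conditions, with 11725 and 10915 CPM in WT and 11746 and 11659 in csa under SD, and 6702 and 6653 in WT and 8451 and 10473 in csa under LD. Its lowest time differed between SD and LD. In SD it was 08:00, when RCA was at its peak, with 4866 and 5155 CPM in WT and 4344 and 5768 in csa. In LD it was 20:00 in csa and 04:00 in WT. In WT LD its means at 04:00 and 20:00 were 2725 and 2736 CPM, with libraries that overlapped, so these times were not told apart. Its peak was 2.26 and 2.31 times the lowest mean in WT and csa under SD, and 2.45 and 3.41 times under LD. RBCS2 peaked at 08:00 in WT SD and csa LD and at 12:00 in the other two conditions, with ranges of 3.1, 2.32, 4.15 and 6.87 times in WT SD, csa SD, WT LD and csa LD. The SD peaks at 12:00 use the libraries that go against their genotype labels. For RBCS4 these libraries, at 10915 CPM or more, lay above every SD library at 16:00, whichever genotype they were. Leaving them out removes 12:00 itself, so it cannot test a peak there and gives only the highest of the other times. Without these libraries the highest SD time of RBCS4 was 16:00 in both genotypes, at 9032 and 8805 CPM in WT and 9666 and 10439 in csa. RBCS3 was then also highest at 16:00, at means of 30783 CPM in WT and 34378 in csa. RBCS2 in csa SD was then highest at 08:00, as RCA was, at a mean of 24632 CPM.

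A test over the 6 times, with no shape assumed, found RCA, RBCS2 and RBCS4 to differ among times in all 4 conditions. Over all genes this test called 81.2% in WT SD, 79.7% in WT LD, 80.9% in csa SD and 78.8% in csa LD, so a difference among times is the usual case in these leaves. The fitted range, from the lowest to the highest time on the log2 scale, was 6.18, 6.96, 6.07 and 7.22 for RCA in WT SD, WT LD, csa SD and csa LD. It was 1.63, 2.05, 1.21 and 2.78 for RBCS2, and 1.18, 1.29, 1.21 and 1.77 for RBCS4. These 3 genes also passed in SD without the libraries labelled 12:00. With library totals in place of scaled totals RBCS2 in csa SD lost its call (0.67, adjusted p = 0.177). RBCS3 passed in WT SD (range 0.99, adjusted p = 0.0262), WT LD (0.85, adjusted p = 0.0495) and csa LD (1.48, adjusted p = 0.000111) but not in csa SD (0.49, adjusted p = 0.34, and 0.433 without the SD libraries labelled 12:00). The WT calls of RBCS3 were lost without the 12:00 libraries, with adjusted p = 0.149 in WT SD without the SD ones and 0.557 in WT LD without all of them. They were also lost in 3 of 12 fits without a library in WT SD (12:00 replicate 1 and either one at 00:00) and in 5 of 12 in WT LD (either one at 08:00 or 00:00, and 12:00 replicate 2).

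The makeup of the family differed between times of day. Of all RBCS counts of a leaf library, RBCS2 made up 41.2% to 50% at 08:00 and 22% to 31.1% at 20:00, with no overlap, over 8 libraries each. RBCS3 made up 38.6% to 49.5% at 08:00 and 54.5% to 67.7% at 20:00. These are shares of counts that were not divided by gene length, so they compare times and not genes. The balance between activase and small subunits differed more: there were 1.16 to 1.77 RCA counts for each RBCS count at 08:00 and 0.0239 to 0.0589 at 20:00. At 16:00 the ratio was 0.0637 to 0.071 in SD and 0.015 to 0.019 in LD. At 04:00 it was 0.607 to 0.703 in SD and 1.44 to 1.91 in LD. SD and LD libraries did not overlap at either time, and lay in opposite order at the 2 times.

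**Figure D2:**
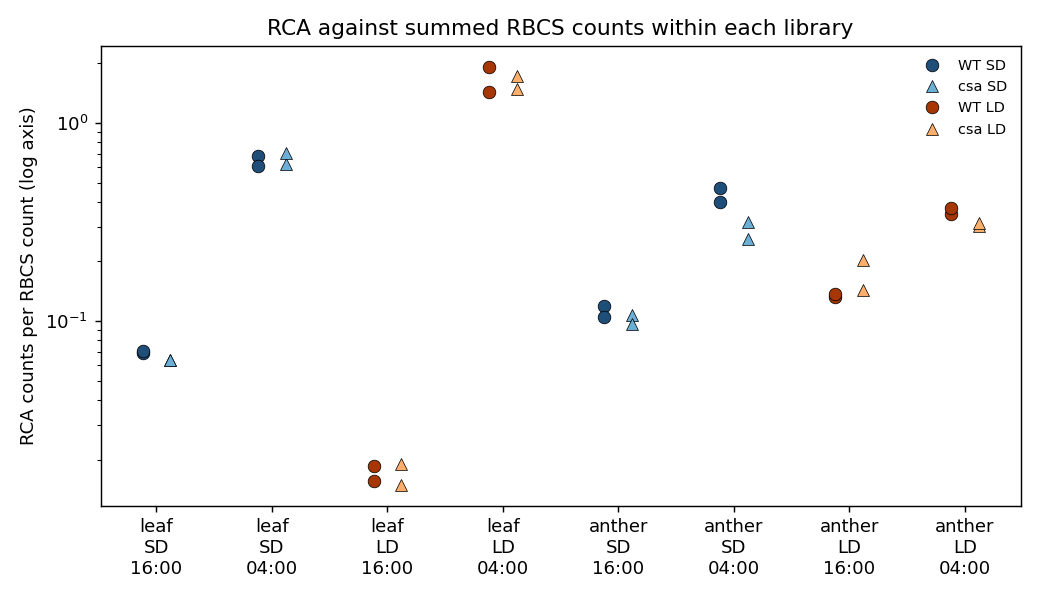
RCA counts per RBCS count (log axis) in each leaf and anther library at 16:00 and 04:00, by genotype and photoperiod. In leaves SD lies above LD at 16:00 and below it at 04:00, and in anthers every 04:00 library (0.261 to 0.47) lies above every 16:00 library (0.0973 to 0.203).

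Across the 24 leaf group means, log2 levels of RBCS3 and RBCS4 had a Pearson r of 0.844 and those of RBCS2 and RBCS3 of 0.769, while RCA had 0.663 with RBCS2, 0.366 with RBCS3 and 0.292 with RBCS4. Over the 22 means without SD 12:00 these were 0.816, 0.757, 0.643, 0.310 and 0.212. The genes of a pair were measured in the same libraries, so these are descriptions without a test. The 3 other genes whose pattern over the 24 means was most like that of RCA were LOC_Os04g33190, LOC_Os11g24450 and LOC_Os03g48000, each with r of 0.98. For RBCS3 they were LOC_Os09g36450 (TPI, triose phosphate isomerase of the chloroplast; r = 0.816), LOC_Os03g21620 (0.806) and LOC_Os01g13690 (0.791). Only TPI among these 6 was on the list of pathway genes.

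Photoperiod was compared first over all 6 times. In WT leaves all 4 tested genes were higher in SD than in LD, where 45.9% of all genes were called in either direction and 24.2% were higher in SD. RBCS4 had 4866, 6665 and 11725 CPM as its lowest, median and highest of 12 WT libraries in SD, and 2226, 3627 and 6702 in LD, so that the groups overlapped across times; the difference was 0.88 ± 0.08 (SE; 1.84-fold, adjusted p = 2.45e-10). RBCS3 had 18444, 29473 and 45617 CPM in SD and 13104, 15809.8 and 29373 in LD, a difference of 0.70 ± 0.10 (1.63-fold, adjusted p = 1.96e-06). RBCS2 differed by 0.48 ± 0.11 (1.4-fold, adjusted p = 0.000871) and RCA by 0.37 ± 0.10 (1.3-fold, adjusted p = 0.00191). In csa leaves, where 43.1% of all genes were called, RBCS4 was the one gene of the 4 to pass, at 0.56 ± 0.08 (1.47-fold, adjusted p = 1.09e-06). RBCS3 was at 0.18 ± 0.10 there, RCA at 0.05 ± 0.10 and RBCS2 at -0.02 ± 0.11. Both sets of calls held without the SD libraries labelled 12:00, at 0.91 for RBCS4 in WT and 0.61 in csa, and at 0.28 for RCA in WT (adjusted p = 0.0356).

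At single times RCA differed between SD and LD in opposite directions. At 16:00 RCA was 7.02-fold higher in SD in WT (2.81 ± 0.25, adjusted p = 5.97e-09) and 5.94-fold higher in csa (2.57 ± 0.25, adjusted p = 1.48e-08), where the comparisons called 24.5% and 22.7% of all genes. At 00:00 it was lower in SD by 0.83 ± 0.24 in WT (adjusted p = 0.00995) and by 1.31 ± 0.24 in csa (adjusted p = 0.000167), against 23.7% and 26.6% of all genes called. At 04:00 it was lower in SD by 0.81 ± 0.24 in WT (adjusted p = 0.00971) and by 1.004 ± 0.24 in csa (adjusted p = 0.00252), against 27.2% and 21.5%. At each of these 3 times the SD and LD libraries of a genotype did not overlap. The WT difference at 00:00 was lost without SD replicate 2 or without either LD replicate (adjusted p up to 0.166), and the one at 04:00 without SD replicate 1 or LD replicate 1 (up to 0.0758). At 08:00 and 20:00 RCA did not pass in either genotype. At 12:00 it was higher in SD in WT (0.86 ± 0.24, adjusted p = 0.00427, 40% of all genes called) and did not pass in csa (0.29 ± 0.23, 26.7% called), in groups that include the libraries that go against their labels. The WT call at 12:00 was lost without replicate 1 of SD or of LD (adjusted p up to 0.0706).

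**Figure D3:**
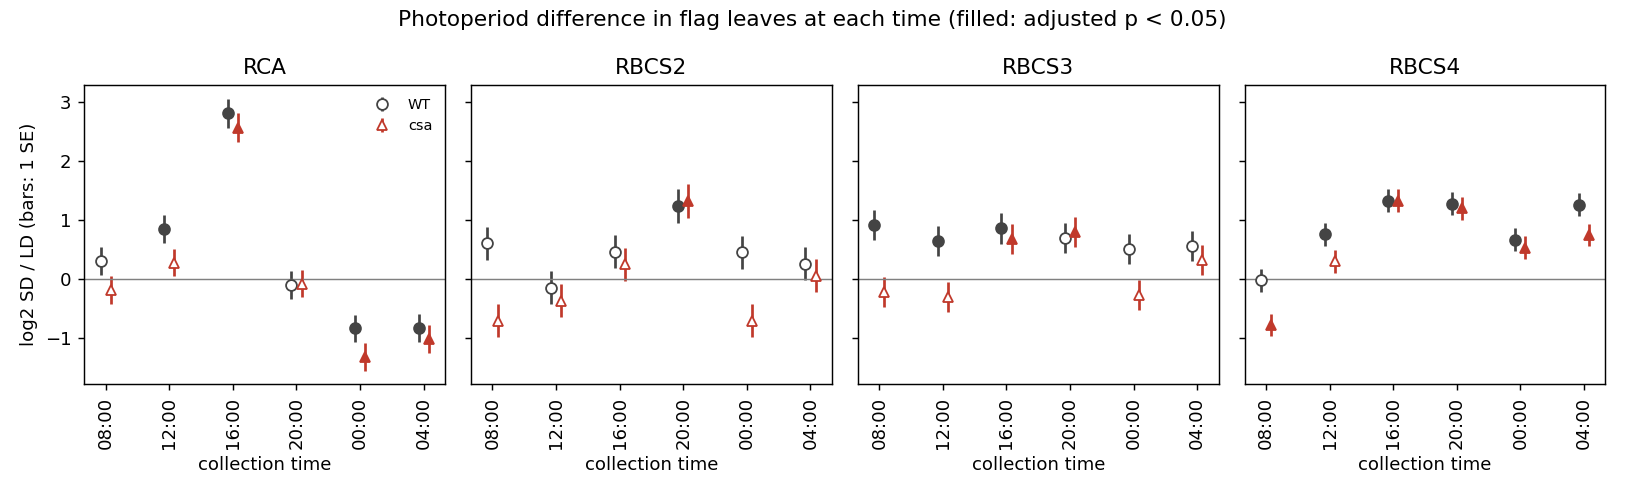
Log2 fold change of SD over LD in leaves at each collection time in hours for RCA and RBCS2 to RBCS4, with bars of 1 SE and filled points where adjusted p is under 0.05. RCA runs from 2.81 in WT and 2.57 in csa at 16:00 to -0.83 and -1.31 at 00:00, while RBCS4 is above 0.5 at every time from 16:00 to 04:00 in both genotypes.

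RBCS4 was higher in SD from late afternoon to the end of the night in both genotypes, and at 12:00 in WT. In WT it was higher by 1.33 ± 0.20 at 16:00, 1.28 ± 0.20 at 20:00 (17.3% of all genes called), 0.67 ± 0.19 at 00:00 and 1.27 ± 0.19 at 04:00, and in csa by 1.33 ± 0.20, 1.21 ± 0.19 (15.4% called), 0.54 ± 0.19 and 0.75 ± 0.19. At 12:00, with the libraries that go against their labels, it was higher by 0.76 ± 0.19 in WT (adjusted p = 0.00219) and did not pass in csa (0.31 ± 0.19). At 08:00 in csa it was the other way round: SD libraries had 4344 and 5768 CPM and LD libraries 8959.6 and 8290.1, a fall of 0.77 ± 0.19 (adjusted p = 0.00313, 28.1% called). In WT at 08:00 (20.6% called) RBCS4 was at -0.01 ± 0.19 and RBCS3 passed instead, at 0.92 ± 0.26. RBCS2 was higher in SD at 20:00 in both genotypes, by 1.24 ± 0.28 in WT and 1.33 ± 0.28 in csa, and passed at no other time. RBCS3 further passed at 12:00 (again with those libraries) and 16:00 in WT and at 16:00 and 20:00 in csa, between 0.65 and 0.86. These calls at single times rest on 2 libraries a group. For RBCS4 the csa call at 00:00 was lost without SD replicate 1 or either LD replicate (adjusted p up to 0.432), at 04:00 without SD replicate 1 or LD replicate 2 (0.129) and at 08:00 without SD replicate 1 (0.0741), and the WT call at 00:00 without replicate 1 of either (0.112). The RBCS2 call in WT was lost without LD replicate 2 (0.0699). The csa calls of RBCS3 were lost without any 1 of the 4 libraries compared (0.247), and its WT calls without SD replicate 1 at all 3 times, LD replicate 1 at 08:00 and 12:00, or LD replicate 2 at 16:00 (0.336).

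Whether the photoperiod difference changed with time was tested directly. In WT, where 53.1% of all genes were called, RCA (range of the SD minus LD difference over times 3.64 on the log2 scale, adjusted p = 4.54e-09) and RBCS4 (1.34, adjusted p = 0.000595) passed, and RBCS2 (adjusted p = 0.0752) and RBCS3 (adjusted p = 0.86) did not. In csa, where 49.3% were called, all 4 passed, with ranges of 3.88 for RCA, 2.02 for RBCS2, 1.09 for RBCS3 and 2.10 for RBCS4. Without the SD libraries labelled 12:00 each of these calls held. Means of the 3 day times against the 3 night times gave RCA 2.04 ± 0.14 higher by day in WT SD and 1.86 ± 0.14 in csa SD, where 57.1% and 57.4% of all genes were called. Without the SD libraries labelled 12:00 it was 1.66 in WT and 1.44 in csa, both past the threshold. The same difference was 0.13 ± 0.14 in WT LD (58% called) and 0.17 ± 0.14 in csa LD (55.7% called), neither past the threshold. RBCS2 was higher by day in all 4 conditions, by 0.74 ± 0.16, 0.65 ± 0.16, 1.08 ± 0.16 and 1.15 ± 0.16 in WT SD, csa SD, WT LD and csa LD, and by 0.71 and 0.55 in WT SD and csa SD without those libraries. With library totals in place of scaled totals the median over all genes moved by -0.44 to -0.41 in these comparisons (-0.22 to 0.22 in the others within a tissue and 0.46 to 0.60 between tissues), RCA in LD then passed as lower by day, RBCS2 in csa SD lost its call (0.24, adjusted p = 0.108), and RBCS4 in SD changed sign.

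Genotype was compared next in leaves. In SD none of the 4 genes passed between csa and WT (0.06 to 0.16, adjusted p 0.664 to 0.952; 0 of 4 at an unadjusted p under 0.05 and 0 by DESeq2), where 0.493% of all genes were called. None passed without the SD libraries labelled 12:00 either (adjusted p 0.549 to 0.826). In LD all 4 were higher in csa when averaged over the collection times, where 3.42% of all genes were called and 1.79% were called higher. RBCS2 was higher by 0.61 ± 0.11 (1.53-fold, adjusted p = 0.00107), RBCS3 by 0.59 ± 0.10 (1.5-fold, adjusted p = 0.00055), RCA by 0.49 ± 0.10 (1.4-fold, adjusted p = 0.00198) and RBCS4 by 0.43 ± 0.08 (1.35-fold, adjusted p = 0.000848). RBCS3 had 14686, 26193 and 47199.7 CPM as lowest, median and highest in csa LD against 13104, 15809.8 and 29373 in WT LD, so the groups overlapped across times. Genotypes were not tested at single times in leaves. At 20:00 the LD means of csa and WT were close for RBCS2 (5803 and 5848 CPM) and RBCS4 (2778 and 2736). RBCS3 was then lower in csa (15379 and 17239), with libraries that overlapped, and RCA stood at 1356 and 1242. At each other time all 4 LD means were higher in csa, for example RBCS2 at 00:00 (17869 and 6556 CPM). The difference of the genotype effects between SD and LD did not pass for any of the 4 (-0.53 to -0.32, adjusted p 0.127 to 0.361), where 0.294% of all genes were called. At an unadjusted p under 0.05 all 4 passed, and DESeq2 called 1 of them, RBCS3 (adjusted p = 0.00995). Without the SD libraries labelled 12:00 none passed edgeR's adjusted test (-0.56 to -0.28, adjusted p 0.193 to 0.48). The higher levels in csa are thus not shown to be particular to LD.

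Other genes of the pathway were counted in the same comparisons. Of 12 Calvin cycle genes, 4 were higher in csa in LD leaves and none lower: TKL1 (transketolase, LOC_Os06g04270; 0.44 ± 0.09, adjusted p = 0.00275), RPI (ribose phosphate isomerase, LOC_Os07g08030; 0.29 ± 0.07), PGK (phosphoglycerate kinase, LOC_Os05g41640; 0.34 ± 0.09) and GAPA (a glyceraldehyde phosphate dehydrogenase subunit, LOC_Os04g38600; 0.42 ± 0.12). The list's median was 0.29, against 0.00 over all genes, of which 1.79% were higher. Of 9 photorespiration genes, GDCH (a glycine decarboxylase subunit, LOC_Os10g37180; 0.32 ± 0.07) passed, and neither of the 2 chaperonin genes did. Between SD and LD in WT, 7 of the 12 Calvin cycle genes were higher in SD and none lower (median 0.26), against 24.2% of all genes, led by TPI (LOC_Os09g36450; 0.55 ± 0.08) and PGK (0.47 ± 0.09). Photorespiration genes went both ways, with GLO1 (glycolate oxidase, LOC_Os03g57220; 0.39 ± 0.07) and PGLP1 (phosphoglycolate phosphatase, LOC_Os04g41340; 0.30 ± 0.07) higher and GLDP1 (glycine decarboxylase P protein, LOC_Os01g51410; -0.60 ± 0.08) and CATC (catalase, LOC_Os03g03910; -0.46 ± 0.10) lower. In csa 4 of 12 Calvin cycle genes were higher in SD and 1 was lower, near the share over all genes, of which 23.2% were higher and 43.1% called.

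**Figure D4:**
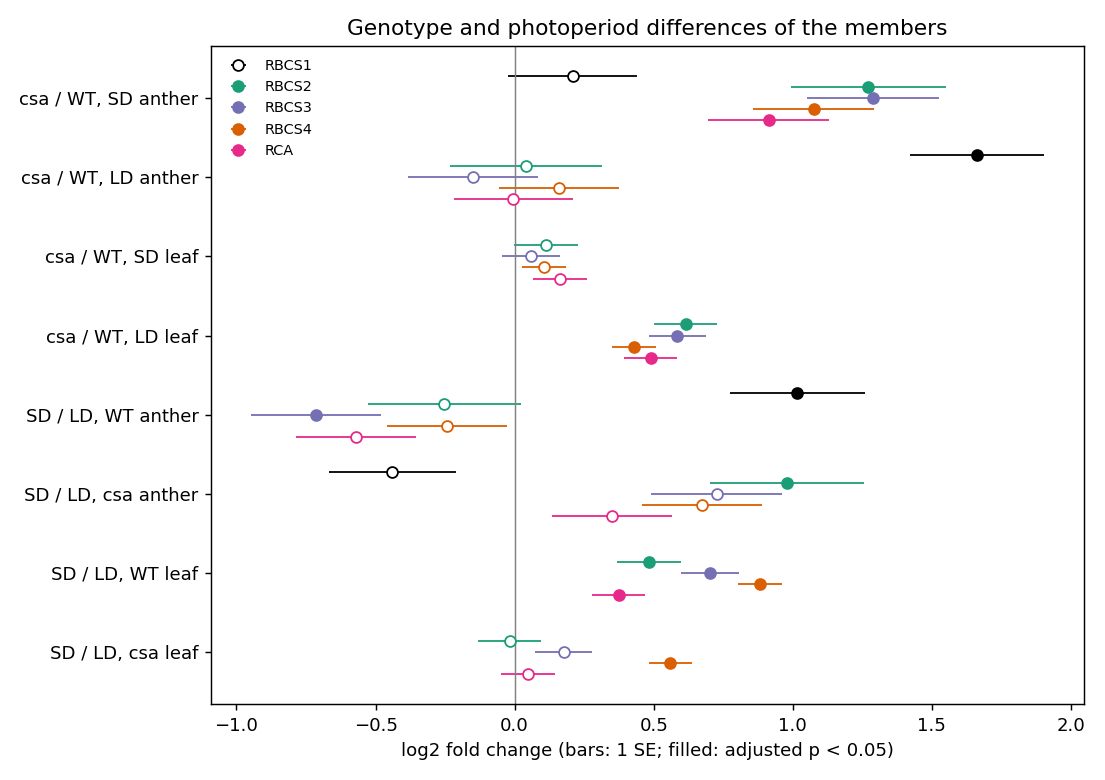
Log2 fold changes of the 5 genes in 8 genotype and photoperiod comparisons of anthers and leaves, averaged over collection times, with bars of 1 SE and filled points where adjusted p is under 0.05. Filled points for RBCS2, RBCS3, RBCS4 and RCA lie between 0.91 and 1.29 for csa over WT in SD anthers and between 0.43 and 0.61 in LD leaves, and RBCS1 stands at 1.66 in LD anthers.

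Between the tissues the leaf genes and RBCS1 went in opposite directions. In a joint fit of 26665 genes, RCA, RBCS2, RBCS3 and RBCS4 were lower in anthers than in leaves at both shared times in both genotypes, where 81.9% (WT, 16:00), 82.2% (WT, 04:00), 78.6% (csa, 16:00) and 81.2% (csa, 04:00) of all genes were called and 35.8%, 34.8%, 34.7% and 33.9% were lower in anthers. In WT the difference was -4.22 ± 0.22 for RCA at 16:00 and -8.13 ± 0.26 at 04:00, -7.40 ± 0.31 and -8.19 ± 0.32 for RBCS2, -5.64 ± 0.25 and -6.46 ± 0.26 for RBCS3, and -5.89 ± 0.21 and -5.73 ± 0.21 for RBCS4. In csa RCA was at -4.33 ± 0.22 and -7.51 ± 0.26. Anthers and leaves came as separate tables, so tissue and table cannot be told apart. Both came from the same tillers, and the joint fit took their libraries as unpaired. All 12 Calvin cycle genes and 8 of 9 photorespiration genes were lower in anthers in each of these 4 comparisons. The remaining one, GLO3 (a glycolate oxidase gene, LOC_Os04g53210), named after its values were seen, was higher.

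RBCS1 was counted in every anther library and hardly at all in leaves. It had 36 to 331 counts in each of the 16 anther libraries, and 0 counts in 37 of 48 leaf libraries, 1 or 2 in 10, and 40 in the remaining one, replicate 1 of csa SD leaves at 16:00. A count of 0 allows up to 0.131 to 0.363 CPM in a leaf library, by a floor of 3 counts that covers counting error only. Summed over the 4 libraries of each tissue, WT anthers had 660 counts at 16:00 and leaves 1, a 453-fold difference per count sequenced with a 95% counting interval of 81.1 to 17931. In WT at 04:00 the ratio was 116 (31.7 to 958), with 348 counts against 2. In csa at 04:00, with 870 counts against 0, it was at least 188-fold higher in anthers, by a floor of 3 counts over the leaf group. In csa at 16:00 it was 18.1 (13.3 to 25.3) and, without the leaf library with 40 counts, 277 (76.5 to 2291). Of the tapetum markers, RAFTIN1, OsC6 and PKS1 had 0 counts in that library, EAT1 had 1, ABCG26 11 and CYP703A3 30. RAFTIN1 and OsC6 had 0 in every leaf library, and PKS1 had at most 1. The counts of ABCG26 and EAT1 were the highest of any leaf library, while CYP703A3 reached 44 elsewhere. Replicate 2 of the same group had 1 count of ABCG26 and 10 of CYP703A3. The 6 markers summed to 2.53 CPM in replicate 1. This was within the 0.677 to 2.7 CPM of the other leaf libraries at 16:00, which had at most 2 counts of RBCS1. The leaf RBCS genes, by contrast, were counted in every anther library, at 35.3 to 319.9 CPM for RBCS2, 194 to 1120.3 for RBCS3 and 74.7 to 356 for RBCS4.

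**Figure D5:**
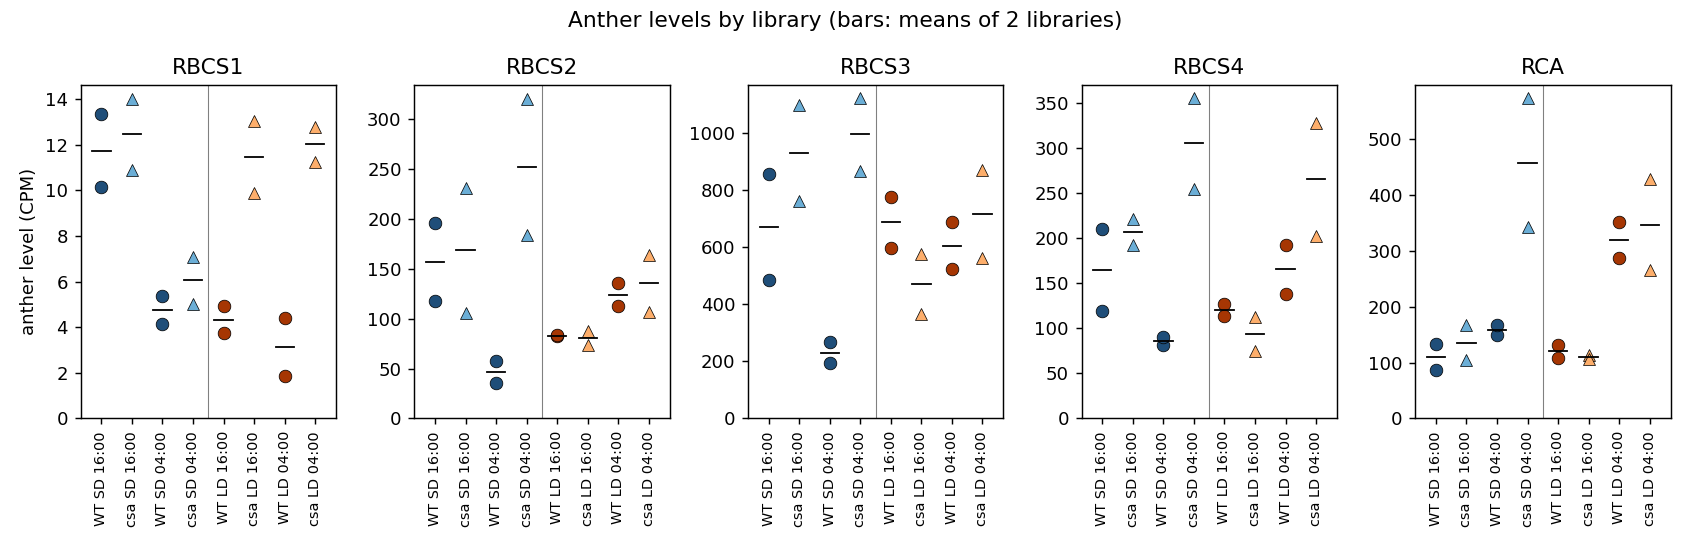
Anther levels (CPM) of the 5 genes in each library at 16:00 and 04:00, by genotype and photoperiod, with bars at means of 2. RBCS2, RBCS3, RBCS4 and RCA are higher in csa SD than in WT SD at 04:00 without overlap, and RBCS1 is higher in csa LD than in WT LD in all 4 libraries against 4.

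In anthers the leaf small subunits and activase were higher in csa than in WT under SD. This comparison called 47.5% of all genes, 25.8% of them higher. RBCS2 had 117 and 196 CPM at 16:00 and 35.3 and 57.6 at 04:00 in WT, against 231 and 106 and then 319.9 and 184 in csa, a difference of 1.27 ± 0.28 over both times (2.42-fold, adjusted p = 0.00311). RBCS3 had 484 and 857 CPM and then 194 and 266 in WT, against 1098 and 759.9 and then 1120.3 and 867 in csa, a difference of 1.29 ± 0.24 (2.44-fold, adjusted p = 0.00112). RBCS4 had 119.6 and 210.1 CPM and then 81.5 and 90.9 in WT, against 221 and 192 and then 356 and 255 in csa, a difference of 1.08 ± 0.22 (2.11-fold, adjusted p = 0.00197). For all 3 genes the genotypes overlapped at 16:00 and stood apart at 04:00, where WT was low. RCA had 87.4 and 133 CPM and then 149 and 168 in WT, against 167 and 104 and then 573 and 342 in csa, a difference of 0.91 ± 0.22 (1.88-fold, adjusted p = 0.00502), with the same overlap at 16:00 and none at 04:00.

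At 04:00 alone RBCS2 was higher in csa by 2.44 ± 0.41 (5.43-fold, adjusted p = 0.000937), RBCS3 by 2.11 ± 0.34 (4.31-fold, adjusted p = 0.000803), RBCS4 by 1.83 ± 0.31 (3.54-fold, adjusted p = 0.00108) and RCA by 1.53 ± 0.31 (2.89-fold, adjusted p = 0.0027), with 41.5% of all genes called and 20.8% higher in csa. At 16:00 none of the 5 passed (0.08 to 0.47, adjusted p 0.276 to 0.858; 0 of 5 at an unadjusted p under 0.05 and 0 by DESeq2), with 41.9% called. The change of the genotype difference between the 2 times was not tested. RBCS1 did not pass in SD: it had 10.1 and 13.3 CPM and then 5.37 and 4.15 in WT and 14.02 and 10.9 and then 5.03 and 7.07 in csa, a difference of 0.21 ± 0.23 (adjusted p = 0.478).

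Under LD, RBCS1 was the one gene of the 5 to pass. It had 4.95 and 3.73 CPM at 16:00 and 1.88 and 4.42 at 04:00 in WT, and 9.91 and 13.03 and then 12.8 and 11.2 in csa. Every csa library lay above every WT library, and the difference was 1.66 ± 0.24 (3.17-fold, adjusted p = 0.000577), where 35.2% of all genes were called. It passed at each time, by 1.40 ± 0.34 at 16:00 (adjusted p = 0.0149, 20.7% called) and by 1.93 ± 0.35 at 04:00 (adjusted p = 0.00565, 16% called). The 16:00 call was lost without replicate 2 of WT or of csa (adjusted p up to 0.131) and in a fit of the compared libraries alone (adjusted p = 0.118). RBCS2 (0.04 ± 0.27), RBCS3 (-0.15 ± 0.23), RBCS4 (0.16 ± 0.22) and RCA (-0.00 ± 0.22) did not pass in LD, and their libraries overlapped. RCA, for example, had 132, 109, 351 and 287 CPM in WT and 113, 107, 266 and 428 in csa, at 16:00 and then 04:00.

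The test of the difference between SD and LD, which called 17.8% of all genes, passed for RBCS3 (1.44 ± 0.33, adjusted p = 0.0153), for RBCS2 (1.23 ± 0.39, adjusted p = 0.048) and, with the opposite sign, for RBCS1 (-1.46 ± 0.33, adjusted p = 0.0149). RBCS4 (0.92 ± 0.31, adjusted p = 0.0572) and RCA (0.92 ± 0.31, adjusted p = 0.0568) did not pass. RBCS2 was lost in 11 of 16 fits without a library, with adjusted p up to 0.12, and with the replicate number as a block (0.0687). RBCS1 as a share of RBCS counts needs no library scaling. In SD it was 0.683% ± 0.338 in csa and 1.28% ± 0.328 in WT (SD, n = 4 each), and in LD 1.5% ± 0.697 in csa and 0.43% ± 0.169 in WT. By an exact two-sided permutation test over libraries p was 0.0571 in SD and 0.0286 in LD, the latter the smallest that 70 splits allow. The splits ignored time of day, although the csa shares in SD were 0.896% and 1.02% at 16:00 and 0.279% and 0.539% at 04:00. As a share of RBCS1 and RBCS2 counts alone, RBCS1 was 5.07% ± 3.3 in csa and 8.56% ± 3.16 in WT in SD (exact p = 0.2) and 10.6% ± 3.5 and 3.76% ± 1.79 in LD (exact p = 0.0286). Adjusted over these 4 tests, p was 0.0762 and 0.0571 in SD and LD for the first share, and 0.2 and 0.0571 for the second, so none passed. In LD the 4 csa shares, 0.82% to 2.47%, all lay above the 4 WT shares, 0.185% to 0.569%. In SD the shares overlapped.

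Photoperiod and time of day were also compared in anthers. In WT, RBCS1 was higher in SD than in LD by 1.02 ± 0.24 (2.02-fold, adjusted p = 0.0099) and RBCS3 lower by 0.71 ± 0.24 (adjusted p = 0.04), where 28.9% of all genes were called. In csa, RBCS2 was higher in SD by 0.98 ± 0.28 (1.97-fold, adjusted p = 0.0349), where 15.5% were called, and RBCS1 was at -0.44 ± 0.23. The RBCS3 and RBCS2 calls were each lost in 5 of 8 fits without a library (adjusted p up to 0.15 and 0.145). Between 16:00 and 04:00, WT SD anthers had more of all 4 RBCS genes at 16:00 (29.9% called, 14.5% higher at 16:00): by 1.30 ± 0.33 for RBCS1, 1.76 ± 0.40 for RBCS2, 1.54 ± 0.34 for RBCS3 and 0.94 ± 0.31 for RBCS4. Without replicate 2 at 16:00 none of these 4 passed, without replicate 1 at 04:00 RBCS2, RBCS3 and RBCS4 did not, and without replicate 2 at 04:00 RBCS1 and RBCS4 did not (adjusted p up to 0.323). RCA ran the other way, lower at 16:00 than at 04:00 by 1.41 ± 0.31 in WT LD (adjusted p = 0.0148, 11% called), 1.76 ± 0.31 in csa SD (adjusted p = 0.00408, 15.5% called) and 1.66 ± 0.31 in csa LD (adjusted p = 0.00432, 19.7% called), and did not pass in WT SD (-0.52 ± 0.31). RBCS4 was lower at 16:00 in csa LD by 1.51 ± 0.31 (adjusted p = 0.00675). The RCA call in WT LD was lost without replicate 2 at 16:00 or replicate 1 at 04:00 (adjusted p up to 0.0999), that in csa SD without replicate 2 at 16:00 (0.058), and that of RBCS4 without replicate 2 at either time (0.0678).

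The rest of the pathway was described with the same lists in anthers. Between csa and WT in SD, 10 of 12 Calvin cycle genes were higher and none lower, where 25.8% of all genes were higher. The list median was 0.67, against 0.08 over all genes. The 4 with the lowest p were PRK (phosphoribulokinase, LOC_Os02g47020; 1.05 ± 0.15, adjusted p = 0.000247), RPE (ribulose phosphate epimerase, LOC_Os03g07300; 0.53 ± 0.10), cFBP1 (fructose bisphosphatase, LOC_Os03g16050; 1.01 ± 0.19) and SBPase (sedoheptulose bisphosphatase, LOC_Os04g16680; 1.01 ± 0.20). Of 9 photorespiration genes 6 were higher and none lower (median 0.71), among them SHM1 (serine hydroxymethyltransferase, LOC_Os03g52840; 0.74 ± 0.13), GLDP1 (LOC_Os01g51410; 0.59 ± 0.11), GLO1 (LOC_Os03g57220; 0.71 ± 0.13) and GDCH (LOC_Os10g37180; 0.89 ± 0.17). Of the 2 chaperonin genes CPN60A1 (LOC_Os12g17910; 0.45 ± 0.14) was higher. In LD 1 of 12 Calvin cycle genes passed, TPI (LOC_Os09g36450; 0.30 ± 0.10), with a median of 0.12 against 0.04. Over all genes 35.2% were called there and 18.7% were higher. The difference between SD and LD passed for 6 of the 12, all with the larger rise in SD, against 17.8% of all genes called. They were led by PRK (0.88 ± 0.21), GAPA (LOC_Os04g38600; 1.04 ± 0.30), CP12 (a regulator of the cycle, LOC_Os01g19740; 1.06 ± 0.31) and SBPase (0.94 ± 0.28). At 04:00 in SD alone 8 of 12 Calvin cycle and 8 of 9 photorespiration genes were higher in csa, against 20.8% of all genes. The medians were 1.01 and 0.95, against 0.00 over all genes.

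Marker genes of green tissue and of tapetum were compared between csa and WT anthers in the same way. Of 6 light-harvesting and photosystem genes taken as markers of green tissue, 5 were higher in csa anthers in SD (median 0.89, against 0.08 and 25.8% higher over all genes) and 6 in LD (median 0.64, against 0.04 and 18.7%), and none passed the test of the difference between SD and LD. Their summed level was 475 to 498 CPM in WT against 999 to 1377 in csa at 04:00 in SD. At 16:00 in SD it was 2382 to 3253 in WT and 3279 to 3580 in csa. In LD it was 700.4 to 1479 in WT and 1227 to 1632 in csa over both times, and in leaves 2606 to 49170.5, with none of the 6 at 0 in anthers. All 6 tapetum markers were lower in csa in SD (median -1.57), where 5455 of all 25203 genes were lower. In LD 3 were lower and 1 higher (median -0.23), where 4155 of the 25203 were lower. In SD their summed level was 3654 to 7962 CPM in WT anthers and 1626 to 2925 in csa anthers, and in LD it was 2740.0 to 4599 in WT and 1637 to 3658 in csa. The part of green tissue or of tapetum in the differences of the RBCS genes and RCA was not tested.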

How the data were processed

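Total RNA without miRNAs was sequenced from flag leaves and anthers. The authors deposited 1 table of raw read counts per gene for each tissue, with no normalization, and per the labels each column is 1 library. No source used here names the aligner, the counter, the build or the gene models behind them, so no coordinates or sequences are printed. RefSeq gene names could not be joined to the tables, since 0 of its 39387 rows carry these locus identifiers, and 10 of 40 symbols looked up lay there on the chromosome of the identifier. The symbols of the members and lists are therefore those in common use and were not taken from the files.

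The members and lists were chosen with earlier results of these data known. Libraries were grouped by tissue, genotype, photoperiod and time, with 2 in each group, and all 64 were used. Each tissue was fitted in R 4.3.3 with edgeR 4.0.16 on the deposited counts: filterByExpr on the groups, TMM scaling, glmQLFit and glmQLFTest on contrasts of group means, with Benjamini-Hochberg adjustment over all tested genes and a threshold of 0.05. Both tables were joined on gene identifiers for the tissue comparison. CPM are on TMM-scaled totals, with SD over libraries. Shares of RBCS counts were compared by an exact permutation test. A ratio of summed counts has a 95% exact counting interval, which covers counting error only (the labels mention no molecular identifiers, so reads may repeat a molecule). The scripts were tested on simulated counts.

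Genes named are all members, CSA, up to 4 genes of a list with the lowest p among those called, and the 3 genes most like RCA and RBCS3 in leaves. Genes of the lists that serve as examples outside this rule are said to be so. Within a tissue, replicate numbers showed no common pairing of libraries. Correlations of replicate differences lay between -0.311 and 0.332 over 28 pairs of anther groups, with 7 above 0.1 and 7 below -0.1. Over 276 pairs of leaf groups they lay between -0.258 and 0.231, with 30 above 0.1 and 19 below -0.1. Pairing of anther with leaf libraries was not examined. Replicates were not duplicates, with a chi-square per gene of at least 8.26 in anthers and 6.56 in leaves. Alternatives were DESeq2 1.42.0, RLE scaling, library totals, no filter, a replicate block, only the compared libraries, leaves without the 12:00 libraries, and each library left out in turn.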

Additional observations from a re-analysis of the deposited data

Results flagged for a closer look

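The genotype difference in anthers, csa minus WT, differed between SD and LD for 3 of the 5 genes. This was by edgeR's test of the difference itself, which called 17.8% of all genes. The value was 1.441 on the log2 scale for RBCS3, 1.231 for RBCS2 and -1.455 for RBCS1. The sign for RBCS1 was opposite to that for RBCS2 and RBCS3. RBCS4 and RCA did not pass this test. RBCS2 was near the threshold (adjusted p = 0.048) and lost its call with library totals (0.0534) or with a replicate block (0.0687). No library was flagged as far from the others in the 20 anther groups of 4 libraries tested. Each group pooled both collection times, so a difference between times widened its range and could hide a deviant replicate. The lack of flags therefore does not show that no library was aberrant.

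The photoperiod difference in leaves, SD minus LD, differed among the 6 times. In WT, where 53.1% of all genes were called, the range of that difference over times was 3.642 for RCA and 1.344 for RBCS4. In csa, where 49.3% were called, it was 3.876 for RCA, 2.102 for RBCS4, 2.023 for RBCS2 and 1.091 for RBCS3. Whether these patterns differed between WT and csa was not tested.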

How the results depend on the processing

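The higher RBCS2, RBCS3, RBCS4 and RCA in csa anthers in SD kept direction and call under 14 of 14 alternatives each (adjusted p up to 0.0354), as did RBCS1 in LD (up to 0.00757). In leaves the 4 genes higher in csa in LD did so under 31 of 31 (up to 0.0268) and those higher in SD in WT under 32 of 32 (up to 0.0399). Other counts of members called moved by over 1.5 times.

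Library totals: 2 to 1 for anther SD against LD in WT, and 4 to 2 and 3 to 1 for day against night in leaves of WT SD and csa SD. There RBCS4 turned from 0.33 to -0.093 in WT SD and from 0.27 to -0.14 in csa SD, and RCA from 0.13 to -0.288 in WT LD and from 0.17 to -0.277 in csa LD. RCA also turned without all 12:00 libraries, to -0.447 in WT LD and -0.492 in csa LD, where 1 of the 3 day times is missing. Without the SD 12:00 libraries, day against night in WT SD went from 4 to 2.

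No filter: the anther test of SD against LD effects went from 3 to 5, SD against LD in csa from 1 to 4, csa against WT from 0 to 1 in SD at 16:00, from 1 to 3 in LD at 16:00 and from 1 to 2 at 04:00, and 16:00 against 04:00 from 1 to 3 in WT LD, 1 to 4 in csa SD and 2 to 4 in csa LD. In leaves the genotype by photoperiod count went from 0 to 2, and SD against LD at 08:00 from 1 to 2 in both genotypes. DESeq2: 3 to 5 for the anther genotype by photoperiod test, 1 to 3 for SD against LD in csa, 1 to 2 for 16:00 against 04:00 in csa SD, 0 to 1 for leaf genotype by photoperiod and 1 to 2 for SD against LD in csa leaves at 08:00, which RLE scaling also moved from 1 to 2. Only the compared libraries, with fewer samples to estimate the spread: 1 to 0 for anther SD against LD in csa, csa against WT in LD at 16:00 and leaf SD against LD in WT at 08:00, 2 to 1 for WT at 20:00 and csa at 00:00, and 1 to 2 for csa at 08:00 and for anther 16:00 against 04:00 in csa SD. Calls of single genes were also lost, with library totals for RBCS2 in the anther genotype by photoperiod test (adjusted p = 0.0534), RBCS3 in anther SD against LD in WT (0.0505), RBCS4 in 16:00 against 04:00 in WT SD (0.0584) and RBCS3 in SD against LD in csa leaves at 16:00 (0.0529) and 20:00 (0.0525), with RLE scaling for RBCS4 at 00:00 in csa (0.0649) and RBCS3 among times in WT LD (0.064), and with only the compared libraries for the latter (0.272), RBCS3 in SD against LD in WT at 12:00 (0.112) and in csa at 16:00 (0.083). The cause was otherwise not tested.

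Within a tissue the replicate numbers showed no common pairing. With them as a block, the anther SD against LD counts went from 2 to 1 in WT (RBCS3, adjusted p = 0.0571) and from 1 to 0 in csa (RBCS2, 0.0515), RBCS2 left the genotype by photoperiod calls (0.0687) and RBCS4 the 16:00 against 04:00 calls in WT SD (0.051), and RBCS3 joined SD against LD in WT leaves at 20:00 (0.0407).

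With each library left out in turn, the anther counts ranged from 2 to 5 for genotype by photoperiod, 1 to 3 for SD against LD in WT and 0 to 3 in csa, 0 to 1 for csa against WT in LD at 16:00, and, for 16:00 against 04:00, 0 to 4 in WT SD, 0 to 1 in WT LD and csa SD and 1 to 2 in csa LD. In leaves the range was 0 to 1 for genotype by photoperiod, where RBCS2 passed without WT LD 04:00 replicate 1. For SD against LD it was 0 to 1 at 08:00 in both genotypes, and in WT 1 to 3 at 12:00 and 20:00, 0 to 1 at 00:00 and 1 to 2 at 04:00, and in csa 1 to 2 at 00:00 and 04:00. The RBCS1 share difference ranged from -0.708 to -0.458 points in SD and from 0.746 to 1.29 in LD. None of these values reversed.

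Counts over all genes moved as well. csa against WT went from 109 in SD leaves to 505 with no filter, 194 with DESeq2, 271 without the SD and 266 without all 12:00 libraries, and from 756 in LD leaves to 1661 with library totals, 1515 with no filter, 1136 with DESeq2 and 327 without all 12:00 libraries. Leaf genotype by photoperiod went from 65 to 642, 244 with DESeq2 and 29 without all 12:00 libraries, and anther csa against WT in LD at 04:00 from 4036 to 6186 with no filter. With only the compared libraries, csa against WT in LD at 16:00 went from 5215 to 9, 16:00 against 04:00 from 2770 to 602 in WT LD and from 4976 to 1930 in csa LD, and leaf SD against LD from 4556 to 1611 (WT 08:00), 5999 to 3628 (WT 04:00) and 5019 to 1428 (csa 16:00). Without a library the lowest were 2157 of 4486 for anther genotype by photoperiod, 4128 of 7274 and 1239 of 3913 for SD against LD in WT and csa, and 697 of 5215 for csa against WT in LD at 16:00. Depth limits RBCS1 in leaves, and the number of libraries, 2 a group, limits every result at a single time.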
